A study of Mus musculus with 8 samples.

Results

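Sumf1 encodes the formylglycine-generating enzyme of the endoplasmic reticulum, which every sulfatase needs before it can work. The enzyme converts a cysteine in the active site of a newly made sulfatase into formylglycine, and the activated sulfatases then remove sulfate from glycosaminoglycans, sulfolipids or steroid sulfates, most of them in the lysosome. Loss of human SUMF1 leaves all sulfatases inactive, a disorder known as multiple sulfatase deficiency, and in the epidermis the balance of cholesterol sulfate made by a sulfotransferase and removed by a sulfatase is known for its part in cornification and barrier formation. The 7 genes described here, of 23432 gene symbols counted, are Sumf1, its paralog Sumf2 and the lysosomal sulfatases Arsa, Arsb, Ids, Sgsh and Galns. Sumf1 was selected on its measured fall between the control and Kansl1 cKO libraries at P0.5, and the other 6 were added for their known relation to it with results of these libraries in view. Values of the 7 genes in that contrast are therefore given as a description, without a test. All 7 were counted and all 7 passed the filter on low counts in each comparison.

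Polyadenylated RNA of mouse skin epithelium was sequenced in 2 experiments with 2 libraries in each of 4 groups, on a mixed C57Bl/6J and CD-1 background. At E16.5, an embryonic day, cells of dorsal skin positive for K14-H2BGFP, a histone fused to green fluorescent protein driven by the Krt14 promoter, were isolated by flow sorting from littermate controls and from MOF cKO embryos, in which Krt14-Cre deletes the floxed Mof gene, the acetyltransferase of lysine 16 on histone H4. At P0.5, whole epidermis was separated from the dermis with Dispase and lysed, from controls and from Kansl1 cKO pups, in which the same Krt14-Cre deletes exon 3 of Kansl1, a subunit of the NSL complex that holds MOF. Krt14-Cre acts in keratinocytes, so other cells of a sample keep the gene. Counts assigned to genes came to 27561688 and 24957817 in the E16.5 control libraries, 22484018 and 25876862 in E16.5 MOF cKO, 9108709 and 14327981 in P0.5 control, and 19774643 and 13712311 in P0.5 Kansl1 cKO. Levels are CPM, that is counts set relative to library size, scaled with edgeR's TMM factors over the 8 libraries, so that 1 count stood for between 0.0300 and 0.122 CPM.

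The targeted genes were measured first. Kat8, the symbol under which Mof is listed, was at 13.3 and 13.6 CPM in E16.5 control and 11.5 and 12.8 CPM in MOF cKO, with -0.14 as the log2 fold change (SE, the standard error, 0.179; adjusted p = 0.554 by edgeR's quasi-likelihood test). Kansl1 was at 43.4 and 51.8 CPM in P0.5 control and 34.6 and 33.4 CPM in Kansl1 cKO. Both cKO libraries lay below both controls for either gene, and a count over the whole gene does not separate the deleted exons from those that remain. Sex differed between libraries: Xist, expressed from the inactive X chromosome of females, was at 1394 CPM in E16.5 control replicate 1 and at 9.45 CPM in replicate 2, and at 11.1 and 9.21 CPM in MOF cKO. At P0.5 it was at 456 and 1.32 CPM in control and at 408 and 462 CPM in Kansl1 cKO. The Y-linked Ddx3y had 0 counts in both Kansl1 cKO libraries and in P0.5 control replicate 1, and 126 CPM in P0.5 control replicate 2. Keratinocyte markers were high in all libraries. Krt5 and Krt14, the keratins of the basal layer, were at 18015 ± 44.8 CPM and 9092 ± 182 CPM in E16.5 control (SD, n = 2) and at 9460 ± 697 CPM and 6077 ± 639 CPM in P0.5 control (SD, n = 2).

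Sumf1 lies on the minus strand of mm10 at chr6:108107028-108185582. Its counts were 539 and 444 in E16.5 control and 79 and 109 in MOF cKO, and 164 and 302 in P0.5 control and 80 and 48 in Kansl1 cKO. After scaling these were 16.1 and 14.8 CPM in E16.5 control, 3.66 and 4.26 CPM in MOF cKO, 20.1 and 21.0 CPM in P0.5 control and 4.26 and 4.14 CPM in Kansl1 cKO. Every control library was thus above every cKO library, in both experiments. From highest to lowest the groups ran P0.5 control (20.5 ± 0.664 CPM), E16.5 control (15.5 ± 0.934 CPM), Kansl1 cKO (4.20 ± 0.0834 CPM) and MOF cKO (3.96 ± 0.422 CPM; SD, n = 2 each). With this scaling the 2 cKO groups overlapped and the other neighbours in this order did not, and the highest group was 5.19 times the lowest. Scaled by library size alone, Sumf1 was at 19.6 and 17.8 CPM in E16.5 control and at 18.0 and 21.1 CPM in P0.5 control, so the gap between the control groups and their lack of overlap depend on the scaling.

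**Figure D1:**
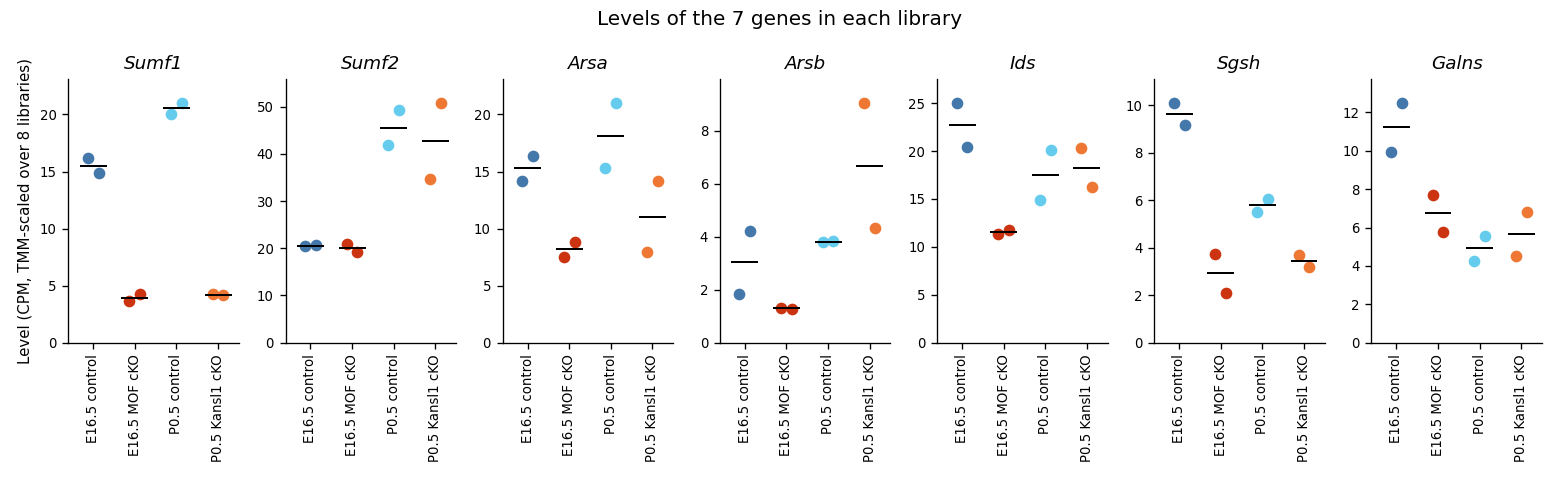
Level in CPM, scaled over the 8 libraries, of each of the 7 genes in the 4 groups, with 1 point per library and a bar at the mean of 2 libraries; each panel has its own axis from 0. Sumf1 lies between 14.8 and 21.0 CPM in the 4 control libraries and between 3.66 and 4.26 CPM in the 4 cKO libraries.

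The MOF comparison asked which genes change in epithelial cells without MOF. Sumf1 is not known to have been chosen on it, but earlier results of these data were known when the 7 genes were picked. Its p-value here carries that limit. Sumf1 fell 3.91-fold in MOF cKO (log2 fold change -1.97, SE 0.221, adjusted p = 0.000906 by edgeR's quasi-likelihood test). The call asks for an adjusted p no higher than 0.01 together with a fold change above 1.5. Of the 7 genes, 3 were called lower (Sumf1, Ids and Sgsh) and 0 higher, where 9.59% of the 13956 genes tested were called lower and 10% higher. For 6 of the 7 the higher MOF cKO library was still below the lower control, which held for 37.7% of all genes tested. The median log2 fold change of the 7 was -0.98, against -0.02 over all genes. The 6 genes beside Sumf1 were added with results of these libraries in view. These counts and medians therefore describe the 7 genes and are no test of them as a set. The adjusted p-values of the 6 genes in this comparison carry the same limit, here and below. Scaling by library size alone moved the median of all genes to -0.32 and the calls from 1338 lower and 1395 higher to 2743 and 769, and under that scaling Sumf1 had a log2 fold change of -2.27. In these bulk samples, fewer cells that express a gene and less of its RNA per cell cannot be told apart.

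Sumf2 encodes a paralog that binds SUMF1 and sulfatases but does not make formylglycine. It was at 20.4 and 20.6 CPM in E16.5 control and at 20.8 and 19.2 CPM in MOF cKO, so the libraries of the genotypes overlapped (log2 fold change -0.04, SE 0.148, adjusted p = 0.854 by edgeR's test). The sign of this small value turned to 0.02 without MOF cKO replicate 2.

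Ids and Sgsh encode enzymes of heparan sulfate breakdown: iduronate sulfatase, which also acts on dermatan sulfate, and N-sulfoglucosamine sulfohydrolase. Ids, on the X chromosome at chrX:70343069-70365084, was at 25.0 and 20.4 CPM in E16.5 control and at 11.3 and 11.7 CPM in MOF cKO. Both cKO libraries were far below the controls, and Ids fell 1.98-fold (log2 fold change -0.98, SE 0.177, adjusted p = 0.00507 by edgeR's test). Without control replicate 1, the library with high Xist, its log2 fold change was -0.82 and the call was lost (adjusted p = 0.0188 by edgeR's test), as it was without MOF cKO replicate 1, at a log2 fold change of -0.96 (adjusted p = 0.0122). Sgsh, at chr11:119343425-119355536, was at 10.1 and 9.18 CPM in control and at 3.75 and 2.11 CPM in MOF cKO. It fell 3.31-fold (log2 fold change -1.73, SE 0.340, adjusted p = 0.00720 by edgeR's test), and it was called without any 1 of the 4 libraries. Exons of Sgsh share 955 bases with exons of Card14 on the opposite strand. Whether the counting used strand is not given in the sources used here, so reads of that stretch cannot be placed. The same holds for 630 bases that Sumf2 shares with Phkg1, 690 that Arsa shares with an antisense RNA, and 1948 and 463 that Arsb shares with noncoding RNAs, all on the opposite strand. Card14, named for this overlap after its values were seen, moved the other way in MOF cKO, from 53 and 67 counts to 257 and 270 (log2 fold change 2.55, adjusted p = 0.00106 by edgeR's test).

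Arsa, Arsb and Galns did not pass the thresholds in edgeR's test. Arsa, at chr15:89472476-89477425, encodes arylsulfatase A, which removes sulfate from sulfatide, a sulfolipid. It was at 14.2 and 16.4 CPM in E16.5 control and at 7.50 and 8.86 CPM in MOF cKO, with -0.90 as the log2 fold change (SE 0.201, adjusted p = 0.0115 by edgeR's test). The 2 genotypes did not overlap, and DESeq2 called it (adjusted p = 0.00743), and across the 12 alternatives its adjusted p ran from 0.000325, with the replicate number as a block, to 0.0548, without control replicate 2. Arsb, at chr13:93771630-93943016, encodes arylsulfatase B, which acts on dermatan and chondroitin sulfate. Its control libraries were far apart at 1.86 and 4.21 CPM, above 1.30 and 1.29 CPM in MOF cKO, and the log2 fold change was -1.22 (SE 0.552, adjusted p = 0.119 by edgeR's test). It was -1.70 without control replicate 1 and -0.53 without control replicate 2. Galns, at chr8:122578242-122611463, encodes the galactosamine sulfatase of keratan and chondroitin sulfate. It was at 9.95 and 12.5 CPM in control and at 7.69 and 5.78 CPM in MOF cKO, with a log2 fold change of -0.74 (SE 0.251, adjusted p = 0.0525 by edgeR's test).

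Other sulfatases moved in both directions in MOF cKO. Of 5 tested outside the 7 genes, 2 were called lower (Arsi and Arsk) and 1 higher (Sulf2), where 9.59% of all genes were called lower and 10% higher. The median log2 fold change of the 5 was -0.07, which is the value of Arsg. Arsk, a lysosomal sulfatase of glucuronate in heparan sulfate, fell by 2.35 on the log2 scale, from 6.60 ± 0.119 (SD, n = 2) to 1.31 ± 0.577 CPM (SE 0.416, adjusted p = 0.00477 by edgeR's test). Arsi, a less studied member of the family, fell from 163 and 120 counts to 11 and 15, a log2 fold change of -3.01 (SE 0.469, adjusted p = 0.00289 by edgeR's test). Its call was lost without control replicate 1, where the log2 fold change was still -2.86 (adjusted p = 0.0103). Sulf2, an extracellular sulfatase that trims heparan sulfate at the cell surface, rose from 1177 and 1400 counts to 3194 and 3776. This was a 3.602-fold rise (log2 fold change 1.85, SE 0.150, adjusted p = 0.000402 by edgeR's test), and Sulf2 alone took 147.7 ± 0.375 CPM in MOF cKO (SD, n = 2). Its close relative Sulf1 and the lysosomal Arsg had log2 fold changes of 0.79 and -0.07 with adjusted p-values of 0.338 and 0.950 by edgeR's test. Both values depended on single libraries. Sulf1 was at -0.03 without MOF cKO replicate 1 and at 1.32 without replicate 2. Arsg was at -0.68 without MOF cKO replicate 1 and at 0.96 without control replicate 1. Arsj had at most 6 counts in any library and was not tested.

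**Figure D2:**
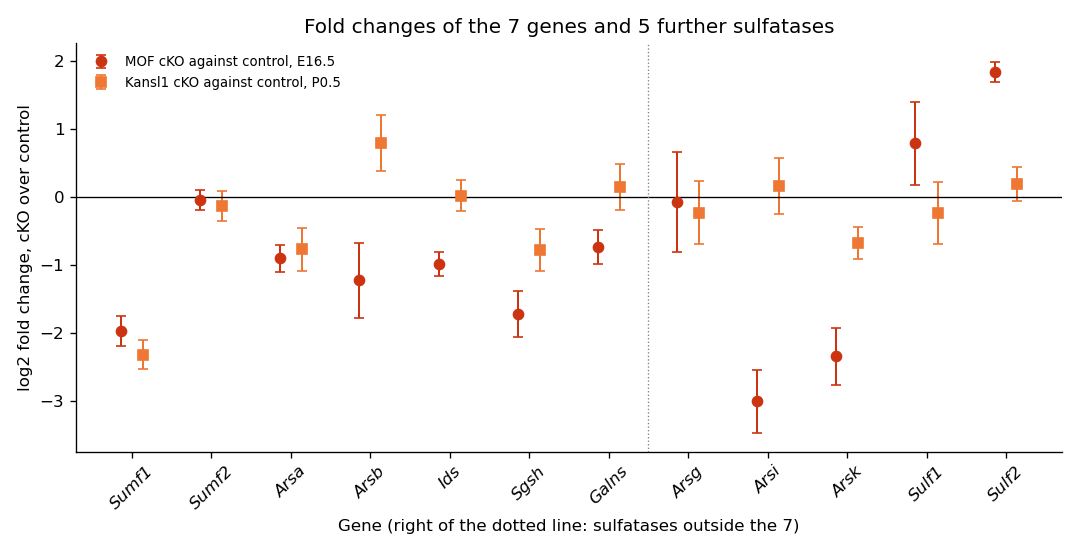
The vertical axis is the log2 fold change of cKO over control from each experiment's own edgeR fit, with bars of 1 SE and 2 libraries per group, for the 7 genes and 5 further sulfatases; values of the 7 genes at P0.5 are a description. Sumf1 lies at -1.97 in the MOF comparison and at -2.32 in the Kansl1 comparison, while Sulf2 lies at 1.85 and 0.20.

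In Kansl1 cKO, where Sumf1 was chosen by its low level, it was lower than in control with a log2 fold change of -2.32 (SE 0.217), rank 40 from the lowest among 13031 genes. Without P0.5 control replicate 2, the library with high Ddx3y, the value was -2.32 as well. Sumf2 was at 41.8 and 49.2 CPM in control and at 34.6 and 50.8 CPM in Kansl1 cKO, so the genotypes overlapped. Arsa and Sgsh were lower in both Kansl1 cKO libraries than in both controls, at 7.94 and 14.2 against 15.3 and 21.0 CPM for Arsa and at 3.68 and 3.19 against 5.51 and 6.05 CPM for Sgsh. Their log2 fold changes were -0.77 and -0.78 with standard errors of 0.322 and 0.310, and that of Arsa was -0.43 without Kansl1 cKO replicate 1 and -1.23 without replicate 2. Arsb was higher in both Kansl1 cKO libraries, at 9.05 and 4.32 against 3.79 and 3.83 CPM, and its log2 fold change was 0.79, and 0.12 without Kansl1 cKO replicate 1. Ids and Galns overlapped between the genotypes, with log2 fold changes of 0.02 and 0.15. In all, 3 of the 7 genes were lower without overlap and 1 was higher, where 20.6% and 28.8% of the genes tested were. These shares are background only, since the contrast served to choose Sumf1. Across the genome edgeR's quasi-likelihood test called 0 genes (0%) in this comparison, with 1077 genes lower and 968 higher at an unadjusted p under 0.05, while DESeq2 called 55 genes lower, 0.443% of the 12407 it gave an adjusted p, and 35 higher. Of the 5 sulfatases tested outside the 7 genes, 0 were called by edgeR, and Arsk had the smallest p, with a log2 fold change of -0.67 (SE 0.234, adjusted p = 0.259 by edgeR's test).

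Control libraries of the 2 experiments were also compared with each other. Stage, isolation and sequencing instrument change together here and cannot be told apart. The study's reporting summary names a different instrument for each of the 2 experiments. Of the 7 genes 0 were called lower and 1 higher at P0.5, where 17.6% of 13859 genes tested were called lower and 22.2% higher. This count includes Sumf1 and is a description, since all 7 were chosen with results of these libraries in view. The adjusted p-values of Sumf2 and Galns below carry the same limit. The gene that rose was Sumf2, at 20.5 ± 0.122 CPM in E16.5 control and 45.5 ± 5.23 CPM in P0.5 control (SD, n = 2) when scaled over the 8 libraries. The fit of the control libraries alone, with its own scaling, gave a 2.41-fold rise (log2 fold change 1.27, SE 0.167, adjusted p = 0.000456 by edgeR's test). With scaling by library size alone its log2 fold change was 0.82 (adjusted p = 0.00738 by edgeR's test). Sumf1 had a log2 fold change of 0.52, given without a test because its P0.5 control libraries took part in its choice. Galns had -1.06 (SE 0.286, adjusted p = 0.0140 by edgeR's test), and Sgsh, Ids, Arsa and Arsb had -0.62, -0.25, 0.37 and 0.45. Across the 11 alternatives the value of Arsb ran from -0.02 to 1.14, and its sign turned without E16.5 control replicate 1. Outside the 7 genes Arsk rose, with a log2 fold change of 1.26 (adjusted p = 0.00271 by edgeR's test), and it did not pass with scaling by library size alone (adjusted p = 0.0372). That scaling moved the median of all genes from -0.01 to -0.47, took Sumf1 to 0.07, turned the values of Arsa and Arsb to the negative side, and changed the calls from 2436 lower and 3070 higher to 4340 and 2089.

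Between genes, levels were compared per kilobase of annotated exons. In E16.5 control Sumf2 was highest of the 7 at 7.68 ± 0.0458 CPM per kilobase, followed by Sumf1 at 4.55 ± 0.274, Ids at 4.45 ± 0.639, Galns at 4.23 ± 0.679 and Arsa at 4.15 ± 0.428, which lay within their spread of each other (SD, n = 2). Per kilobase of the longest transcript Sumf1 was at 5.97 and Ids, Galns and Arsa at 4.57, 4.39 and 4.38, so that closeness depends on the length used. Sgsh was at 2.18 ± 0.146 and Arsb lowest at 0.502 ± 0.275 CPM per kilobase. In MOF cKO Sumf1 stood at 1.16 ± 0.124 CPM per kilobase, below Galns at 2.54 ± 0.510, Ids at 2.26 ± 0.0568 and Arsa at 2.22 ± 0.261 (SD, n = 2). Sumf2, at 7.48 ± 0.431 CPM per kilobase, was again the highest of the 7.

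The enzyme's transcript can be set against the summed transcripts of its substrates. The 11 sulfatases considered here summed to 117 ± 7.36 CPM in E16.5 control and 184 ± 4.12 CPM in MOF cKO, and to 117 ± 5.31 CPM in P0.5 control and 114 ± 16.7 CPM in Kansl1 cKO (SD, n = 2). Sulf2 carried the higher sum in MOF cKO: without it the sums were 75.7 ± 0.761 and 36.3 ± 3.74 CPM at E16.5. The 5 lysosomal sulfatases among the 7 genes summed to 61.9 ± 1.13 CPM (SD, n = 2) in E16.5 control and to 30.6 ± 1.27 CPM in MOF cKO. At P0.5 they summed to 50.2 ± 9.01 CPM in control and 45.1 ± 0.548 CPM in Kansl1 cKO. For each CPM of Sumf1 there were 6.90 and 8.22 CPM of the 11 sulfatases, Sulf2 included, in E16.5 control and 51.1 and 42.5 CPM in MOF cKO. The same ratio was 5.65 and 5.75 in P0.5 control and 29.6 and 24.8 in Kansl1 cKO, where it restates the level by which Sumf1 was chosen, since the sum of the sulfatases barely differed. These sums are of transcripts, and enzyme activity was not measured.

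SUMF1 is held in and passed through the early secretory pathway by partner proteins. In MOF cKO the partner P4hb, protein disulfide isomerase, rose with a log2 fold change of 0.61 and Lman1, a cargo receptor between endoplasmic reticulum and Golgi, fell with -0.70 (adjusted p = 0.00373 and 0.00321 by edgeR's test). Erp44, which returns SUMF1 to the endoplasmic reticulum, had 0.03. At the control stage comparison Erp44 rose with 0.84 (adjusted p = 0.00158 by edgeR's test). In the Kansl1 comparison Erp44, P4hb and Lman1 had log2 fold changes of -0.26, 0.21 and -0.19, and none passed.

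Other steps of lysosomal breakdown did not share 1 direction in MOF cKO. Calls on these lists are edgeR's, beside 9.59% lower and 10% higher over all genes. Scaling by library size alone changed the calls over all genes from 1338 lower and 1395 higher to 2743 and 769. The counts on the lists are therefore given under TMM scaling only. Of 10 other enzymes that degrade glycosaminoglycans, 0 were called lower and 2 higher, the hyaluronidases Hyal1 and Hyal2 with log2 fold changes of 0.98 and 0.71, and the median of the 10 was 0.02. DESeq2 called 2 of the 10 lower and 3 higher; the 2, named after their values were seen, were the heparan sulfate enzymes Idua and Naglu (DESeq2 adjusted p = 0.00618 and 0.00496). Of 25 other lysosomal hydrolases and activators, 6 were called lower and 3 higher, with a median of -0.21. Acid sphingomyelinase, Smpd1, and the thioesterase Ppt1 fell with -1.89 and -1.76, and the cathepsins Ctsc and Ctsd rose with 1.87 and 1.05. Of 18 genes of the lysosomal membrane, its proton pump and the MiT/TFE factors that drive lysosomal genes, 0 were called lower and 7 higher, with a median of 0.25, among them the pump subunits Atp6v1b2 with 1.04 and Atp6v1a with 0.79. Among 5 genes of mannose 6-phosphate sorting, which brings sulfatases to the lysosome, the phosphotransferase gene Gnptab fell with -0.76 and 0 rose.

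Genes that build the sulfated substrates were called in either direction in MOF cKO, beside 9.59% lower and 10% higher over all genes. Of 35 genes of sulfated chain synthesis and sulfate donors, 3 were called lower and 2 higher, with a median log2 fold change of 0.05. B4galt7, which adds the first galactose of the linker to the core protein, fell with -2.49 and the heparan sulfate polymerase gene Ext2 with -1.16, while its partner Ext1 rose with 0.76. Sult2b1, the epidermal sulfotransferase that makes cholesterol sulfate, rose with 2.23. Among 17 proteoglycan core proteins 2 were called lower, Bgn with -1.37 and Gpc3 with -1.08, and 5 higher, led by Srgn with 2.62 and Sdc1 with 0.81.

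None of the genes on these lists was called by edgeR in Kansl1 cKO. The genes ranked first in those lists that held any nominal difference were Ppt1 with a log2 fold change of -1.24 (adjusted p = 0.176 by edgeR's test, 0.000673 by DESeq2, which called it), Mitf with 1.19, Nagpa with -1.30, Csgalnact1 with 0.70 and Vcan with 0.99. The next were Lipa with -1.002, Ctns with -0.72, Gnptg with -0.94, Hs3st3b1 with 0.59 and Bgn with -0.79. Nagpa and Gnptg both act in mannose 6-phosphate sorting. Of the other genes on that list, M6pr was lower too with -0.53, and Gnptab and Igf2r went the other way with 0.19 and 0.30.

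In the stage comparison the hydrolase list had 12 genes called higher and 2 lower at P0.5, with Gm2a at 4.48, Ctsh at 4.04, Ctsz at -0.78 and Gaa at -0.73. The membrane and pump list had 12 higher and 1 lower, with Lamp2 at 2.097, Atp6v1a at 2.01 and Tfe3 at -0.88. The other glycosaminoglycan-degrading enzymes had 3 higher and 1 lower, with heparanase, Hpse, at 6.17, Hexa at 2.91 and Hyal1 at -1.08. The sorting list had Gnptg at 1.23 and M6pr at 0.65 called higher and Igf2r at -1.14 lower. Chain synthesis ran the other way, with 3 higher and 9 lower, Sult2b1 at 4.35, Slc26a2 at 1.22, Chst3 at -2.27 and Chsy1 at -1.54. Core proteins had 2 higher and 5 lower, with Srgn at 4.19, Sdc1 at 0.88, Col18a1 at -1.91 and Cspg4 at -1.80. Over all genes 17.6% were called lower and 22.2% higher, and that balance turns under scaling by library size alone, so these counts describe the lists under TMM scaling only.

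Markers of other skin cells moved with the groups, and their part in the results above was not tested. Summed over 14 genes, macrophage markers were at 20.5 and 44.4 CPM in E16.5 control, with Fcgr1 at 0 counts in replicate 1 and Tyrobp at 0 in replicate 2, and at 103 and 133 CPM in MOF cKO. In MOF cKO all 14 were higher and 7 were called, with Lyz2 at a log2 fold change of 6.83 and Tyrobp at 6.02, and Cd68 was the most abundant in the E16.5 libraries. The same sum was 238 and 279.5 CPM in P0.5 control and 362 and 386 CPM in Kansl1 cKO, where Mrc1 had 1.02 and C1qb 0.98 and 0 were called. Between the controls 13 of the 14 rose at P0.5, Tyrobp with 8.59 and C1qa with 8.29.

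Dermal fibroblast markers, 10 genes led by Postn in 7 of 8 libraries and by Col3a1 in MOF cKO replicate 2, summed to 1409 and 1909 CPM in E16.5 control, 1896 and 2347 CPM in MOF cKO, 2519 and 1597.5 CPM in P0.5 control and 1479.5 and 1366 CPM in Kansl1 cKO. In MOF cKO their median log2 fold change was 1.03 over 9 genes tested, of which 0 were called by edgeR and 2 were called higher by DESeq2, and Postn and Fbln1 had -0.42 and -0.25. The median in Kansl1 cKO was -1.56, with Col1a1 at -1.91 and Col3a1 at -1.76, while Postn and Fbln1 had 0.26 and 0.30. There edgeR called 0 of the 10 and DESeq2 called 4 lower. In the stage comparison Pdgfra rose with 3.32 and Fbln1 fell with -1.07. Melanocyte markers, 6 genes led by Dct, summed to 13.8 and 43.8 CPM in E16.5 control, 18.7 and 68.5 CPM in MOF cKO, 496 and 556 CPM in P0.5 control and 1093 and 1225 CPM in Kansl1 cKO. All 6 were higher in both Kansl1 cKO libraries, with Dct at 1.11 and Tyr at 1.14, where edgeR called 0 and DESeq2 called 4 higher, and all 6 rose between the controls, Mlana with 6.25 and Tyr with 4.91. Endothelial markers summed to at most 29.9 CPM in any library. In MOF cKO 5 of these 6 markers were higher, of which 1 was called, Pecam1 with 1.74, and Egfl7 was lower with -0.52. Between the controls 4 of 5 tested were lower, of which 1 was called, Egfl7 with -1.95, and Pecam1 had 0.17. Keratinocyte markers changed with stage as well: Lor rose with 9.46 and Krt1 with 4.59 at P0.5, Itgb4 and Krt5 fell with -0.88 and -0.81, and in MOF cKO Krt1 and Krt10 rose with 1.67 and 1.12. Of the 10 keratinocyte markers 8 were higher in MOF cKO, and Trp63 and Krt5 were lower with -0.57 and -0.04. In Kansl1 cKO 7 of the 10 were lower and 3 higher, Trp63 among these 3 with 0.40, and 0 were called.

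Over the 8 libraries, the genes whose log2 CPM ran most like that of Sumf1 among 14564 others were Faim, with a Pearson r of 0.98, Kcp with 0.98, Fam173a with 0.98, Gpr108 with 0.97 and Mpv17 with 0.96. The 8 libraries fall into 2 experiments and 4 groups, so these values describe a shared pattern over the groups. By rank the likeness was weaker, with a Spearman rho of 0.64 for Mpv17, 0.81 for Faim, 0.90 for Gpr108 and 0.93 for Kcp and Fam173a. Fam173a was at 31.5 ± 0.0885 CPM in E16.5 control and 15.9 ± 0.594 CPM in MOF cKO, and at 38.1 ± 3.87 CPM in P0.5 control and 19.3 ± 0.879 CPM in Kansl1 cKO (SD, n = 2). The log2 fold changes of Fam173a, Mpv17, Faim, Kcp and Gpr108 in MOF cKO were -0.98, -1.05, -0.97, -1.23 and -0.64, given without a test because these libraries took part in picking them. Of the sulfatases, Arsa came nearest to Sumf1 with r = 0.84 (rank 296), followed by Sgsh with 0.81 (rank 409). Sulf2 had -0.67.

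None of the nearest protein-coding genes on either side of Sumf1 was called lower in MOF cKO, where 9.59% of all genes tested were called lower and 10% higher. Setmar, 29906 bases from it on the side of lower coordinates, and Itpr1, 27514 bases from it on the other side, had log2 fold changes of -0.56 and -0.61 in MOF cKO and did not pass (adjusted p = 0.338 and 0.245 by edgeR's test). Farther out, Lrrn1 and Crbn had 0.31 and -0.31, while Bhlhe40 and Arl8b rose with 0.83 and 0.77 (adjusted p = 0.00167 and 0.00190 by edgeR's test). In Kansl1 cKO the log2 fold changes of these 6 genes lay between -0.81 for Itpr1 and 0.27 for Lrrn1, and none passed. For Setmar, Itpr1 and Crbn both cKO libraries lay below both controls in either experiment. The same held for 37.7% of all genes tested at E16.5 and 20.6% at P0.5. Bhlhe40 and Arl8b lay above both controls in MOF cKO and overlapped in Kansl1 cKO, and Lrrn1 overlapped in both. In the stage comparison Crbn, Lrrn1 and Arl8b rose with 1.80, 1.41 and 1.01, and Setmar, Itpr1 and Bhlhe40 had 1.29, 0.71 and -0.52 and did not pass.

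The site that SUMF1 acts on shows what the sulfatases share. The 30 coding bases from the cysteine codon onward, which stands in capitals, were read from the GENCODE M21 transcripts of the 5 sulfatases, 5′ to 3′ on the coding strand, by a search of the translated reading frame for the sulfatase signature.
Arsa: TGCacgccatctcgggccgccctcctgact
Arsb: TGCacgccctcgcggagccagctgctcacc
Ids: TGCgcaccaagtcgagtgtccttcctcacc
Sgsh: TGTtccccgagccgtgccagcctcctcacc
Galns: TGCtcaccatctagggcagccctgctcaca
In mm10 these lie at chr13:93772051-93772080 for Arsb (plus strand, exon 1 of 8), chrX:70363116-70363145 for Ids (minus strand, exon 3 of 9) and chr11:119352658-119352687 for Sgsh (minus strand, exon 2 of 8). In Arsa the stretch runs over the junction of exon 2 (chr15:89475508-89475521) and exon 3 (chr15:89475347-89475362), and in Galns over that of exon 2 (chr8:122605140-122605149) and exon 3 (chr8:122604194-122604213), both on the minus strand. Of the 30 bases, 11 were identical in all 5 genes, and pairs of genes shared between 15 (Ids and Arsb) and 23 (Galns and Arsa). The search itself required a cysteine, a proline, an arginine and hydrophobic residues at set codons, so part of this identity was fixed in advance.

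The promoters of the 7 genes and of the other sulfatases were searched for CACGTG, the E-box letters at the core of the element described at many lysosomal genes. The search was chosen with the values above known, Kansl1 cKO included, so its matches are no support for any of them. The letters read the same on both strands. Of the 7 genes 6 had an entry among the RefSeq promoters of GRCm38.p6, which run from 250 bases before to 50 bases after the start of a gene, and 3 of them held CACGTG, namely Sumf1, Arsa and Sgsh with 1 copy each. Of 32851 promoters, 7.15% held it. The promoter entries of Arsk, which also fell in MOF cKO, and of Arsg, Arsj and Sulf2 held 0 copies, as did those of Sumf2, Arsb and Ids. Galns, Arsi and Sulf1 had no entry. The 38 bases around each copy are shown on the strand of the gene with CACGTG in capitals.
Sumf1: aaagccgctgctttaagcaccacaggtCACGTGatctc
Arsa: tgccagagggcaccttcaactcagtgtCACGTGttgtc
Sgsh: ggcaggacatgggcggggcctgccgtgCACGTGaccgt
These windows lie on the minus strand at chr6:108185584-108185621, chr15:89477430-89477467 and chr11:119355529-119355566, and the copies end 5, 10 and 23 bases before the start in the RefSeq entry. For Sgsh the GENCODE M21 start lies farther upstream, inside the copy. The longer TCACGTG, searched on both strands and overlapping the shorter motif, was found in the same 3 promoters and in 3.77% of all. Such a match is a description of the letters and not of binding.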

How the data were processed

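The deposited files hold raw counts of reads per gene symbol, which the authors made with HTSeq on mm10. Per the labels the aligner was TopHat2, while the study's methods name HISAT2, and strand setting and annotation are not given in the sources used here. Reads assigned to no gene, between 21.1% and 26.0% of each library, were left out. The 7 members and all lists were chosen with earlier results of these data known. For each comparison, edgeR 4.0.16 in R 4.3.3 filtered low counts (filterByExpr), scaled with TMM and ran its quasi-likelihood test, with Benjamini-Hochberg adjustment over all genes tested; p-values measure spread between these libraries only. The study's thresholds served for calls: adjusted p no higher than 0.01, fold change above 1.5. Standard errors were derived from the fold change and the F statistic. DESeq2 1.42.0, other scalings, no filter, a replicate block, a joint fit and leaving out each library served as alternatives, and the scripts were tested on simulated data. Levels are CPM with TMM over all 8 libraries, per kilobase of GENCODE M21 exons where genes are compared, and 92.9% of symbols matched that annotation. Genes named are the members, the sulfatases, the neighbours and nearest profiles of Sumf1, and from each list the 2 called genes with the largest rise and the 2 with the largest fall. In the Kansl1 comparison, with none called, up to 2 genes per list with the smallest unadjusted p under 0.05 are named. Promoters are RefSeq's on GRCm38.p6. Of the sulfatases, 1 is not reported here and enters no count or sum of them. Sts is not among the counted symbols, and Adgre1 is listed as Emr1.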

Additional observations from a re-analysis of the deposited data

How the results depend on the processing

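Sumf1 and Sgsh were called lower in MOF cKO under all 12 alternatives, with log2 fold changes from -2.27 to -1.87 and from -2.20 to -1.36. Genes called in MOF cKO numbered 2743 lower and 769 higher with library size alone, 2197 lower with every gene of at least 1 count and 2296 lower at an adjusted p of 0.05. In Kansl1 cKO DESeq2 called 55 lower and 35 higher, library size alone 1 lower, and every gene with at least 1 count 117 lower and 73 higher, against 0 and 0; Sumf1 had -2.37 with library size and with upper-quartile factors. Leaving out 1 library gave 4 to 197 lower and 0 to 76 higher there, and -2.37 to -2.30 for Sumf1; a group's lone library is then assumed to vary like the other group. In the stage comparison library size alone gave 4340 lower, and 1 of the 7 genes, Galns, was called lower under library size, under every gene with at least 1 count, in 1 fit over all libraries and at an adjusted p of 0.05. The study's methods speak of pairs of samples and littermate controls, but not of which libraries form a pair, so the replicate numbers are taken as shared numbers only, with same-number correlations of 0.222 in the MOF and -0.188 in the Kansl1 comparison. With the number as a block, 2263 genes were lower and 1903 higher in MOF cKO and 0 and 0 in Kansl1 cKO. The crossed pairing, chosen after seeing the data and run for Kansl1 cKO only, gave 1 lower and 0 higher there. No paired analysis was possible between stages because the animals differ. The cause was not tested. With 2 libraries per group, small differences are beyond reach, and P0.5 control replicate 1 is the shallowest library.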
